A study of Mus musculus with 4 samples.

Results

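Indirect pathway (D2) and direct pathway (D1) spiny projection neurons of the striatum were compared in mice that carry the zQ175 knock-in allele, to see which expression differences between the pathways stand in the knock-in neurons. All 11000 genes with a level of at least 5 CPM (read counts scaled to normalized library size) in either Q175 library were taken, of 37620 genes in the deposited count table. The D2 Q175 library came from heterozygous Q175 males with a Drd2-EGFP reporter, and the D1 Q175 library from heterozygous Q175 males with a Drd1-EGFP reporter. The D2 WT and D1 WT libraries came from wild-type males with the same reporters and are given beside them. All mice were 5 to 6 months old on a C57BL6/J background, and both reporter lines had been moved onto it from FVB. Each library was 1 pool of 4 animals at 150000 EGFP-sorted cells per animal, so no group has a replicate. EGFP is driven by a bacterial artificial chromosome (BAC) with regulatory sequence of 1 receptor gene, so a pathway difference and a difference of reporter line, pool or sort cannot be told apart.

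D1 neurons project directly to the output nuclei of the basal ganglia and carry the dopamine D1 receptor, which raises cAMP. D2 neurons reach the same nuclei through the external pallidum, carry the D2 receptor, which lowers cAMP, and use enkephalin where D1 neurons use dynorphin and substance P. Huntington's disease is caused by an expanded CAG repeat in the huntingtin gene, and spiny neurons are its main target.

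The 4 libraries held 39444117 to 42787068 counts, which puts 38.2 to 43.8 counts behind each normalized CPM, and a count of 0 allowed up to 0.0685 to 0.0784 CPM. Mitochondrially encoded genes took 11.06% of the D2 Q175 counts and 8.98% of the D1 Q175 counts, against 6.49% for D2 WT and 6.06% for D1 WT. Ratios are log2 of D2 over D1 on normalized CPM with a prior count of 2, and their 95% intervals cover counting error only. No test exists between 2 single libraries, so a difference in Q175 is described by its size. The only possible test, the edgeR quasi-likelihood test with Benjamini-Hochberg adjustment on all 4 libraries, tests the D2 over D1 difference averaged over Q175 and WT. "Called" refers to that test below, at an adjusted p under 0.05. The difference between the Q175 and WT ratios was not tested, since it leaves no residual degree of freedom.

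Most genes differed little between the pathways in Q175. The median ratio over the 11000 genes was -0.01, and the 5th and 95th percentiles were -0.43 and 0.37. At least 2-fold higher in D2 Q175 were 84 genes (0.764%), and at least 2-fold lower were 119 (1.08%). A 10-fold gap or more was found for 20 of the higher and 16 of the lower genes. At 1.5-fold the counts were 244 (2.22%) and 314 (2.85%). In the WT pair 98 of the same genes (0.891%) were at least 2-fold higher in D2 WT and 140 (1.27%) at least 2-fold lower. The pathway differences of the knock-in were largely also present in WT: 67 genes were at least 2-fold higher in both pairs, which is 79.8% of the Q175 list and 68.4% of the WT list. A further 96 were at least 2-fold lower in both, or 80.7% and 68.6% of those lists. The averaged test called 818 of the 11000 genes higher in D2 (7.44%) and 839 lower (7.63%). DESeq2 on the same libraries called 352 (3.2%) and 452 (4.11%). Calls in the gene lists below are to be read beside these shares.

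**Figure D1:**
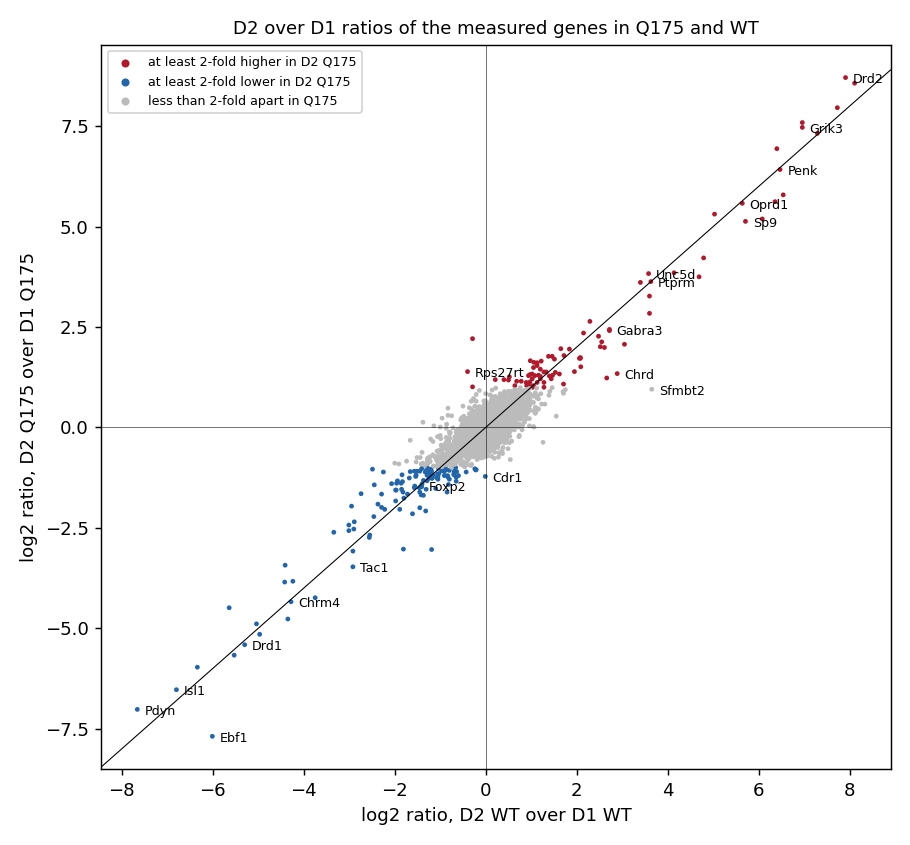
Log2 ratio of D2 Q175 over D1 Q175 (vertical axis) against that of D2 WT over D1 WT (horizontal axis) for the 11000 genes, 1 point each, with the line of equal ratios. Drd2, at 8.71 in Q175, and Pdyn, at -7.02, are far from 0 on the same side in WT. Chrd and Sfmbt2 lie below the line.

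Across the 11000 genes the Q175 and WT ratios, which share no library, had a Pearson r of 0.87 and a Spearman rho of 0.57. Among the 10722 genes under 2-fold in both pairs they were 0.61 and 0.54. Genes are not independent replicates, and both pairs share the reporter lines. The minimum bears on the 2-fold counts: 219 genes reached 5 CPM only in D2 Q175, of which 53 were at least 2-fold higher, and 210 only in D1 Q175, of which 64 were at least 2-fold lower. Such genes differ by the way they were chosen. Among the 10571 that reached it in both, 31 were 2-fold higher and 55 lower. Just below the minimum, at 4 to 5 CPM, 24 of 392 genes were 2-fold apart, and just above it, at 5 to 6 CPM, 24 of 303.

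The pathway markers, chosen with earlier results of these data known, stood on the side that the labels of both Q175 libraries give. For Drd2 and Drd1 the sort itself sets the side, since their regulatory sequence drives EGFP. The markers Ttc12 and Sfxn1 lie near Drd2 and Drd1 in gene order, so they are not separate evidence either. All 9 D2 markers measured were at least 2-fold higher in D2 Q175 (median ratio 7.47, WT 6.96), and all 10 D1 markers at least 2-fold lower (median -5.54, WT -5.41). Drd2, the D2 receptor, had 1434 CPM in D2 Q175 and 3.37 in D1 Q175, against 2076 in D2 WT and 8.58 in D1 WT. It was therefore high in the D2 libraries of both genotypes and near absent from both D1 libraries, with a Q175 ratio of 8.71 (95% counting interval 8.49 to 8.98), a WT ratio of 7.91 and an adjusted p of 2.1e-22. Drd1, the D1 receptor, had 18.1 CPM in D2 Q175 and 771 in D1 Q175, against 33.0 in D2 WT and 1300 in D1 WT. Its ratio was -5.41 (-5.52 to -5.31) in Q175 and -5.30 in WT. The D2 Q175 library thus held 2.34% of the Drd1 level of the D1 Q175 library, and the D1 Q175 library 0.235% of the Drd2 level of the D2 Q175 library.

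The promoters of these receptor genes are shown because their regulatory sequence defines the reporters. They span 250 bases before to 50 after the start in RefSeq's GRCm38.p6, at chr9:49340153-49340452 on the plus strand and chr13:54055609-54055908 on the minus strand, written 5′ to 3′ along the gene. Capitals mark the GC box GGGCGG on either strand, which 35.9% of all 27025 promoters in the table hold and 66.6% of the 8450 promoters of measured genes.
Drd2 promoter: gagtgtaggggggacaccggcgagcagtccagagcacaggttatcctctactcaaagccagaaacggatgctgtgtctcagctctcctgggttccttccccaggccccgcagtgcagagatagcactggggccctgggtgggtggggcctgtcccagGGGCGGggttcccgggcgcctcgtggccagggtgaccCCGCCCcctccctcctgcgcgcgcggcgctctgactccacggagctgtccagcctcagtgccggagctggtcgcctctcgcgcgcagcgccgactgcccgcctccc
Drd1 promoter: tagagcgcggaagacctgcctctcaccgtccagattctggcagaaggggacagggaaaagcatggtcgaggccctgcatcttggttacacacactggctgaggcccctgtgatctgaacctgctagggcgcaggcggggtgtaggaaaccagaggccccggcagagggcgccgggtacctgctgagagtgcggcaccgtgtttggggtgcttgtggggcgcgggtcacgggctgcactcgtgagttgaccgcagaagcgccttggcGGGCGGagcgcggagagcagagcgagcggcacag

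**Figure D2:**
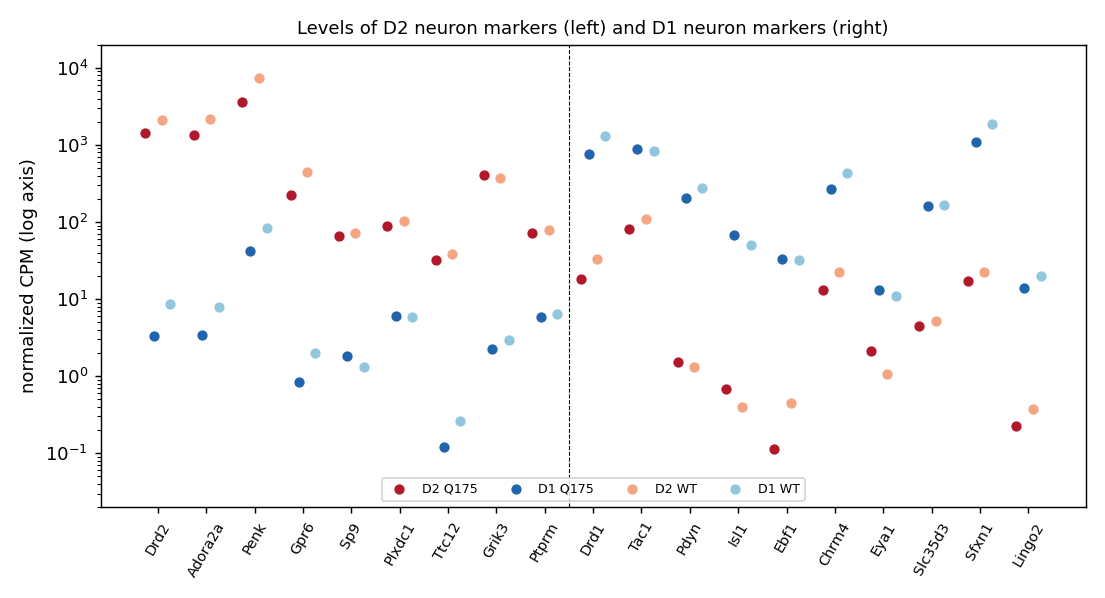
Normalized CPM (log axis) of the 9 D2 markers and 10 D1 markers in the 4 libraries, 1 point per library. Each D2 marker is higher in the D2 libraries and each D1 marker lower, in Q175 as in WT; Tac1 has the smallest gap among the highly expressed markers, at 80.4 CPM in D2 Q175 and 889 in D1 Q175.

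G protein coupled receptors were among the widest gaps of both pathways. Adora2a, the adenosine receptor that raises cAMP in D2 neurons, had 1336 CPM in D2 Q175 and 3.47 in D1 Q175, against 2173 in D2 WT and 7.79 in D1 WT. Gpr6, an orphan receptor that signals through Gs, had 221 CPM in D2 Q175 and 0.838 in D1 Q175, against 439 in D2 WT and 2.01 in D1 WT. Their Q175 ratios were 8.57 and 7.96, their WT ratios 8.11 and 7.73. Oprd1, the delta opioid receptor, had 17.2 CPM in D2 Q175 and 0.311 in D1 Q175, against 33.7 in D2 WT and 0.628 in D1 WT (ratio 5.58 in Q175 and 5.64 in WT). P2ry1, an ADP receptor, had ratios of 4.22 in Q175 and 4.79 in WT, and Htr4, a Gs-coupled serotonin receptor, 2.41 in Q175 and 2.72 in WT. On the D1 side, Chrm4, the Gi-coupled muscarinic receptor, had 13.2 CPM in D2 Q175 and 270 in D1 Q175, against 22.4 in D2 WT and 437 in D1 WT, a ratio of -4.34 in Q175 and -4.28 in WT. The annotation of Chrm4 overlaps that of its neighbour Mdk, so their reads cannot be told apart without strand. Gpr26, an orphan receptor, had 50.1 CPM in D2 Q175 and 201 in D1 Q175, against 104 in D2 WT and 284 in D1 WT. Adra2c, an adrenergic receptor that inhibits cAMP formation, had a ratio of -1.99 in Q175 and -2.29 in WT. All of these receptors were called, also by DESeq2.

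Neuropeptide precursors split the same way. Penk, the enkephalin precursor, had 3582 CPM in D2 Q175 and 41.7 in D1 Q175, against 7476 in D2 WT and 84.2 in D1 WT. Both Q175 libraries held less Penk than the WT library of their pathway, and the ratio was 6.42 (6.36 to 6.49) in Q175 and 6.47 in WT. Pdyn, the dynorphin precursor, had 1.53 CPM in D2 Q175 and 205 in D1 Q175, against 1.31 in D2 WT and 273 in D1 WT. Tac1, the substance P precursor, had 80.4 CPM in D2 Q175 and 889 in D1 Q175, against 108 in D2 WT and 824 in D1 WT. The Pdyn ratio was -7.02 in Q175 and -7.66 in WT, that of Tac1 -3.47 in Q175 and -2.92 in WT. On the length-scaled FPKM scale Penk was the more abundant peptide RNA, at 2669 FPKM in D2 Q175, while Tac1 was 921 and Pdyn 89.8 FPKM in D1 Q175. Nts, the neurotensin precursor, was 25.9 CPM in D2 Q175 and 0.479 in D1 Q175, against 14.7 in D2 WT and 0.131 in D1 WT. Of 9 neuropeptide and granin genes measured, 2 were called higher (22.2%) and 5 lower (55.6%).

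Transcription factors of the striatum differed mainly on the D1 side. Of 29 measured, 7 were at least 2-fold lower in D2 Q175 and 1, Sp9, higher. Of these 29, 5 were called higher (17.2%) and 11 lower (37.9%), or 3 and 10 by DESeq2. Sp9, a zinc finger factor needed for D2 neurons, had 65.3 CPM in D2 Q175 and 1.82 in D1 Q175, against 72.5 in D2 WT and 1.33 in D1 WT (ratio 5.13 in Q175 and 5.71 in WT). Isl1, a LIM homeodomain factor of D1 neurons, had 0.685 CPM in D2 Q175 and 67.7 in D1 Q175, against 0.403 in D2 WT and 50.3 in D1 WT (ratio -6.53 in Q175 and -6.80 in WT). Ebf1, a factor of D1 neuron differentiation, had 0.114 CPM in D2 Q175 and 33.6 in D1 Q175, against 0.453 in D2 WT and 32.4 in D1 WT. Its ratio of -7.69 (-9.83 to -6.98) was the lowest of the measured genes on this scale and rests on few D2 counts; on FPKM with a pseudocount of 0.1 it was -5.68, above Pdyn (-6.89), Isl1 (-6.25) and Sfxn1 (-5.97). Ikzf1 (ratio -4.24), Eya1 (-2.61) and Foxp2 (-1.44) followed, with WT ratios of -3.75, -3.34 and -1.41. Of 32 spiny neuron identity genes, 5 were called higher (15.6%) and 4 lower (12.5%), with a median ratio of -0.03 in Q175 and 0.01 in WT.

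Excitatory and inhibitory receptors were mostly under 2-fold apart, with single subunits far apart. Grik3, a kainate receptor subunit, had 404 CPM in D2 Q175 and 2.23 in D1 Q175, against 373 in D2 WT and 2.95 in D1 WT (ratio 7.47 in Q175 and 6.96 in WT). Gabra3, the alpha3 subunit of the GABA-A receptor, had 24.9 CPM in D2 Q175 and 4.55 in D1 Q175, against 23.7 in D2 WT and 3.56 in D1 WT (ratio 2.44 in Q175 and 2.72 in WT). No other ionotropic glutamate or GABA gene was 2-fold apart in Q175. Over the lists, 2 of 22 ionotropic glutamate receptor genes were called higher (9.09%) and 1 lower (4.55%), near the 7.44% and 7.63% of all measured genes. Of 20 GABA genes 4 were called higher (20%) and 3 lower (15%), of which DESeq2 called 2 and 0.

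Ion channels gave small differences in both directions. Of 45 potassium channel genes, 8 were called higher (17.8%) and 9 lower (20%), or 4 and 7 by DESeq2. Over all measured genes the shares called were 7.44% and 7.63%. Kcng1, a modifier subunit of Kv2 channels, had 67.6 CPM in D2 Q175 and 153 in D1 Q175, against 32.5 in D2 WT and 116 in D1 WT (ratio -1.18 in Q175 and -1.84 in WT). Kcnj10, an inward rectifier best known from glia, had a ratio of 0.91 in Q175 and 0.70 in WT. Of 15 sodium and HCN channel genes edgeR called 4 lower (26.7%) and DESeq2 1. Neither called any higher, nor was any higher at an unadjusted p under 0.05. Of 27 calcium channel and calcium store genes 2 were called in each direction (7.41%), near the shares of all measured genes. Cacna2d2, an auxiliary calcium channel subunit, was 194 CPM in D2 Q175 and 103 in D1 Q175, against 183 in D2 WT and 110 in D1 WT (ratio 0.92 in Q175 and 0.73 in WT).

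Second messenger genes held few 2-fold gaps. Of 33 cAMP and G protein genes, 5 were called higher (15.2%) and 7 lower (21.2%), or 3 and 6 by DESeq2. Gnai1, an inhibitory G protein subunit, had ratios of -1.04 in Q175 and -1.20 in WT. Adcy2, an adenylyl cyclase, had -1.29 in Q175 and -0.80 in WT. Gnas was far higher in D2 (ratio 3.27 in Q175 and 3.60 in WT), but its counts were not whole and its locus holds overlapping transcripts, so this value is uncertain. Among 29 calcium-binding and CaM kinase genes, 3 were called higher (10.3%) and 8 lower (27.6%). Necab1, a neuronal calcium-binding protein, had 204 CPM in D2 Q175 and 46.5 in D1 Q175, against 292 in D2 WT and 49.8 in D1 WT (ratio 2.13 in Q175 and 2.55 in WT). Its annotation overlaps that of its neighbour Gm11837, so their reads cannot be told apart without strand. Hpcal1 and Vsnl1, calcium sensors, were lower in D2 Q175, with ratios of -2.57 and -1.09, against WT ratios of -3.01 and -1.45.

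Of 51 axon guidance genes 15 were called higher (29.4%) and 9 lower (17.6%), or 12 and 5 by DESeq2. Their median of 0.08 was 0.00 among genes of at least 20 CPM. Of 51 synaptic adhesion genes 6 were called higher (11.8%) and 13 lower (25.5%), or 3 and 10 by DESeq2. Unc5d, a netrin receptor, had 13.2 CPM in D2 Q175 and 0.885 in D1 Q175, against 12.1 in D2 WT and 0.967 in D1 WT (ratio 3.83 in Q175 and 3.58 in WT). Ptprm, an adhesive receptor tyrosine phosphatase, had 72.9 CPM in D2 Q175 and 5.84 in D1 Q175, against 79.3 in D2 WT and 6.38 in D1 WT, a ratio of 3.63 in both genotypes. Slitrk6, a synaptic adhesion protein, was 12.2 CPM in D2 Q175 and 0.287 in D1 Q175, against 5.03 in D2 WT and 0.0261 in D1 WT. Lingo2 and Cntnap3, also adhesion proteins, had Q175 ratios of -5.67 and -3.83 and WT ratios of -5.53 and -4.24. Sema6d, a semaphorin, had ratios of -1.24 in Q175 and -0.65 in WT. In growth factor signalling, 6 of 24 genes were called higher (25%) and 7 lower (29.2%). Erbb4, the neuregulin receptor, had 4.02 CPM in D2 Q175 and 13.7 in D1 Q175, against 3.72 in D2 WT and 13.1 in D1 WT. Nrg3, one of its ligands, had 3.15 in D2 Q175 and 8.73 in D1 Q175, against 3.57 in D2 WT and 10.6 in D1 WT.

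In the release machinery and the cytoskeleton most calls were lower in D2. Of 38 synaptic vesicle and release genes, 1 was called higher (2.63%) and 10 lower (26.3%), or 1 and 8 by DESeq2. Rab3b, a vesicle GTPase, had 33.9 CPM in D2 Q175 and 77.5 in D1 Q175, against 26.6 in D2 WT and 76.9 in D1 WT. Its effector Rph3a had 80.8 in D2 Q175 and 152 in D1 Q175, against 68.6 in D2 WT and 183 in D1 WT, and Syt7, a calcium sensor of release, 230 in D2 Q175 and 374 in D1 Q175, against 204 in D2 WT and 318 in D1 WT. Their Q175 ratios were -1.19, -0.91 and -0.70. Of 31 cytoskeleton genes, 2 were called higher (6.45%) and 7 lower (22.6%), or 1 and 5 by DESeq2. Nefl, the light neurofilament chain, had 110 CPM in D2 Q175 and 294 in D1 Q175, against 144 in D2 WT and 380 in D1 WT, and Stmn2, a microtubule regulator, 45.6 in D2 Q175 and 143 in D1 Q175, against 11.6 in D2 WT and 77.6 in D1 WT.

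Single markers of other neurons differed between the pathways in both directions. Slc17a7, the vesicular glutamate transporter of cortical neurons, had 0.685 CPM in D2 Q175 and 4.59 in D1 Q175, against 0.302 in D2 WT and 3.69 in D1 WT. Npy, of GABAergic interneurons, had 0.183 CPM in D2 Q175 and 3.28 in D1 Q175, against 0.201 in D2 WT and 5.39 in D1 WT. The GABAergic interneuron list as a whole did not run that way in Q175. Its 12 markers summed to 8.95 CPM in D2 Q175 and 8.45 in D1 Q175, against 7.02 in D2 WT and 12.6 in D1 WT. Both cortical markers that were measured, Nrgn and Cux2, had ratios above 0, at 0.33 and 0.12 in Q175. Nrgn makes up nearly all of the cortical sum and is expressed by spiny neurons. Its ratio therefore does not give the level of cortical cells. On the other side Chat, the acetylcholine-synthesizing enzyme, was 0.753 CPM in D2 Q175 and 0.239 in D1 Q175. Slc5a7, its choline transporter partner, was 0.731 CPM in D2 Q175 and 0.0239 in D1 Q175. The last value is below the 0.0718 CPM that a count of 0 allows in D1 Q175. The cholinergic markers summed to 76.1 CPM in D2 Q175 and 67.5 in D1 Q175, against 53.9 in D2 WT and 45.3 in D1 WT. Nearly all of this sum is Ache, the only 1 measured, which had a ratio of 0.15 in Q175 and 0.25 in WT. Tacr1, the substance P receptor, had ratios of 1.66 in Q175 and 0.98 in WT. Of the 12 GABAergic interneuron markers 8 were under 1 CPM in all 4 libraries, as were 5 of 10 cortical and 5 of 6 cholinergic markers. The part of these cells in the neurofilament, release, cadherin and Tacr1 differences was not tested.

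Glial markers were somewhat higher in the D2 libraries. Astrocyte markers summed to 413 CPM in D2 Q175 and 381 in D1 Q175, against 454 in D2 WT and 422 in D1 WT, and oligodendrocyte markers to 518 in D2 Q175 and 439 in D1 Q175, against 396 in D2 WT and 365 in D1 WT. Of 12 astrocyte markers 6 were measured, of which 3 were called higher (50%), none of them by DESeq2. Of 5 oligodendrocyte markers measured, 2 were called higher (40%). Over all measured genes the share called higher was 7.44%, and both lists hold few measured genes. Among the 2 was Mag, a myelin protein, with 6.14 CPM in D2 Q175 and 2.49 in D1 Q175, against 3.42 in D2 WT and 1.60 in D1 WT. Kcnj10 and Apoe, which glia also express, had Q175 ratios of 0.91 and 0.68, and the part of glia in them was not tested. In bulk pools, fewer cells of a type and less RNA per cell cannot be told apart.

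**Figure D3:**
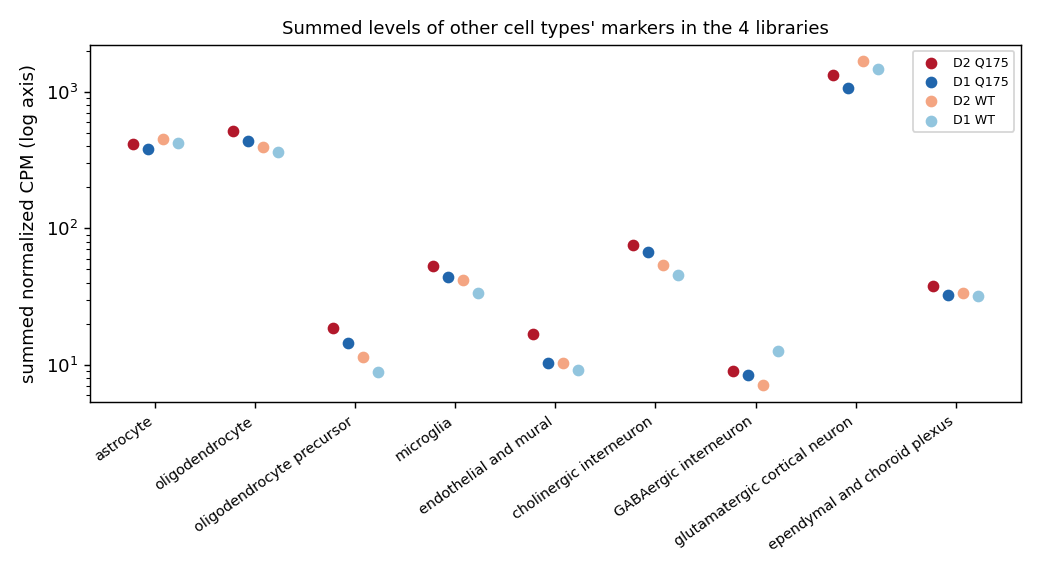
Summed normalized CPM (log axis) of the markers of 9 other cell types in the 4 libraries, 1 point per library. Microglial markers sum to 52.5 CPM in D2 Q175 and 43.7 in D1 Q175; the cortical sum of 1345 CPM in D2 Q175 and 1074 in D1 Q175 is nearly all Nrgn, which spiny neurons express.

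Immediate early genes, which neurons switch on within minutes of activity, were higher in D2 neurons. Of 26 measured, 22 had a ratio above 0 in Q175 and 21 in WT, with median ratios of 0.29 in Q175 and 0.23 in WT; over all measured genes the medians were -0.01 in Q175 and -0.02 in WT. The averaged test called 14 higher (53.8%) and 2, Homer1 and Klf10, lower (7.69%), against 7.44% and 7.63% of all measured genes. DESeq2 called 11 higher and 1 lower, against 3.2% and 4.11% of all measured genes. Fos had 72.0 CPM in D2 Q175 and 46.1 in D1 Q175, against 52.9 in D2 WT and 31.7 in D1 WT, a ratio of 0.64 (0.56 to 0.72) in Q175 and 0.74 in WT (adjusted p 1.8e-06). Fosl2, a Fos relative, had 64.0 CPM in D2 Q175 and 34.7 in D1 Q175, against 91.4 in D2 WT and 57.3 in D1 WT, and Nr4a3, a nuclear receptor, 50.4 in D2 Q175 and 28.2 in D1 Q175, against 53.1 in D2 WT and 42.4 in D1 WT. Btg2, a growth arrest gene, had ratios of 0.83 in Q175 and 0.90 in WT. All 4 were in each genotype higher in the D2 library than in the D1 library. Homer1, whose short form is activity-induced, had 182 CPM in D2 Q175 and 238 in D1 Q175, against 354 in D2 WT and 489 in D1 WT. The counts are per gene and cannot tell its forms apart.

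Promoters of 4 of these genes are shown because cAMP-responsive factors are known to act there. Capitals mark TGACG on either strand, the core of the cAMP response element. Of the 21 measured immediate early genes with a RefSeq promoter, 61.9% hold it, against 34.2% of the 8450 promoters of measured genes and 21.0% of all 27025; a match is a description, not a bound site. The regions are Fos chr12:85473640-85473939 and Nr4a1 chr15:101266596-101266895 on the plus strand, and Fosb chr7:19309996-19310295 and Junb chr8:84978699-84978998 on the minus strand, in GRCm38.p6.
Fos promoter: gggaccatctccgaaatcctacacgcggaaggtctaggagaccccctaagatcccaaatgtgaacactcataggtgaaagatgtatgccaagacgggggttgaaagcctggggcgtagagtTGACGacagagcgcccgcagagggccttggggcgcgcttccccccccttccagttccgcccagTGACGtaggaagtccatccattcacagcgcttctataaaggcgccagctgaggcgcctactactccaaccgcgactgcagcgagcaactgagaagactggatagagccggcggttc
Fosb promoter: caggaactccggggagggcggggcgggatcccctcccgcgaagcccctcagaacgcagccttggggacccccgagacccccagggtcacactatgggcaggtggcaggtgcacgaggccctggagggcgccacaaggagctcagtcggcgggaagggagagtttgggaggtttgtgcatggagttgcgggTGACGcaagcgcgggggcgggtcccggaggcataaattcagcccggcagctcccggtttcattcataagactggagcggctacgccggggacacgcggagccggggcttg
Junb promoter: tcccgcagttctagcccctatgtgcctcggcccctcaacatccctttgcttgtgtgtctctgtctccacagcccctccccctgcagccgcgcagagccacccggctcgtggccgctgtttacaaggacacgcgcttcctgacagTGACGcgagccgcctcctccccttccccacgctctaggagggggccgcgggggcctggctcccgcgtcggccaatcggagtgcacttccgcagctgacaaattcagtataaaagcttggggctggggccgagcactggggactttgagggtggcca
Nr4a1 promoter: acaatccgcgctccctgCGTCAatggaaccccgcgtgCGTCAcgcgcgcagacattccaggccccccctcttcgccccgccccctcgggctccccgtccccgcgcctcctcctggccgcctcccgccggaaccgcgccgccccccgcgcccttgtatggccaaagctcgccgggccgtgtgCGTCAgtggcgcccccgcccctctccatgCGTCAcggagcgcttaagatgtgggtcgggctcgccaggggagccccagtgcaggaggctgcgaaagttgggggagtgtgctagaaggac
Fosb, a Fos family factor, had ratios of 0.55 in Q175 and 0.45 in WT, Junb, their dimer partner, 0.25 in Q175 and 0.29 in WT, and Nr4a1, a nuclear receptor, 0.56 in Q175 and 0.34 in WT. The averaged test called all 3 higher; Junb was not called by DESeq2 (adjusted p 0.065).

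Chaperones were lower in D2 neurons. Of 24 cytosolic chaperone and co-chaperone genes measured, 23 had a ratio below 0 in Q175 and 22 in WT. Their medians were -0.21 in Q175 and -0.26 in WT. The edgeR test called 13 lower (54.2%) and none higher, against 7.63% and 7.44% of all measured genes. DESeq2 called 6 lower and none higher. At an unadjusted p under 0.05 in edgeR, 20 were lower and none higher. Hspa8, the constitutive Hsp70, had 1604 CPM in D2 Q175 and 2097 in D1 Q175, against 1655 in D2 WT and 2412 in D1 WT (ratio -0.39 in Q175 and -0.54 in WT). Hsp90 subunit Hsp90aa1 had 532 CPM in D2 Q175 and 655 in D1 Q175, against 565 in D2 WT and 774 in D1 WT, and its co-chaperone Ahsa1 88.7 in D2 Q175 and 120 in D1 Q175, against 96.2 in D2 WT and 128 in D1 WT. In the Q175 pair all 24 differences were under 1.5-fold. In the unfolded protein response and ER folding list, 18 of 23 genes were below 0 in Q175 and 19 in WT. Both edgeR and DESeq2 called 6 lower (26.1%) and none higher. Over all measured genes, edgeR called 7.63% lower and DESeq2 4.11%. At an unadjusted p under 0.05 in edgeR, 11 of the list were lower and 2 higher. Hsp90b1, the ER Hsp90, had ratios of -0.39 in Q175 and -0.32 in WT.

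**Figure D4:**
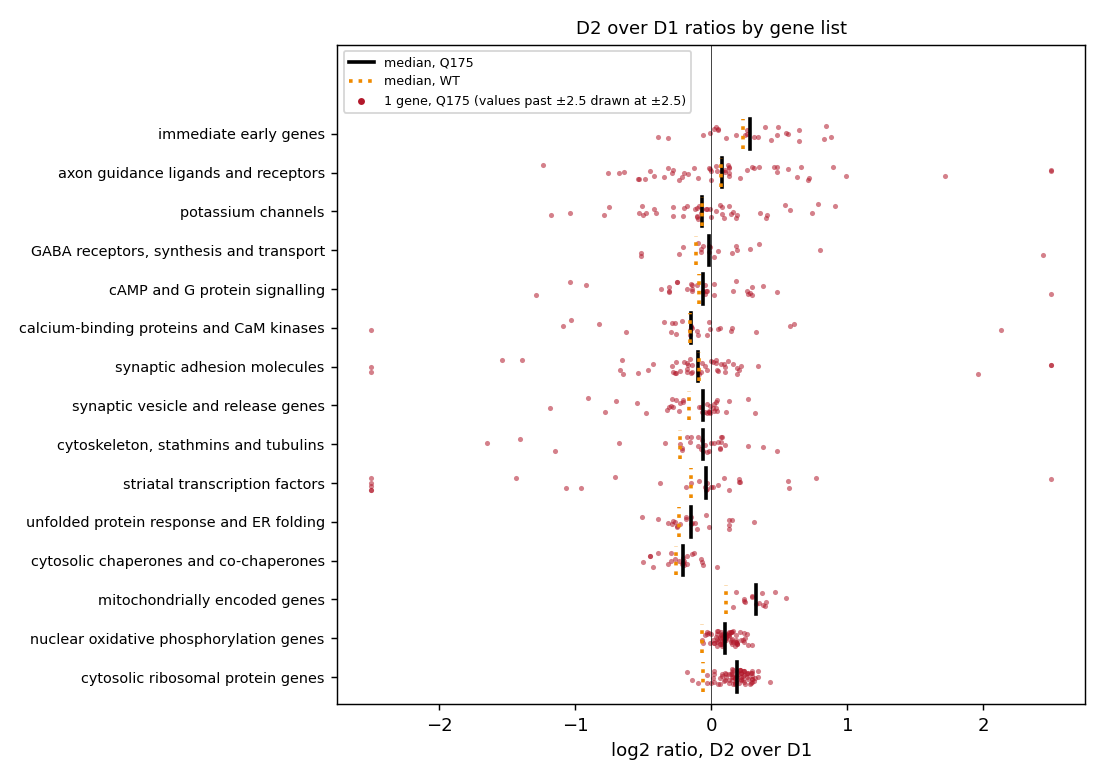
Log2 ratios of D2 Q175 over D1 Q175 of measured genes in 15 lists, 1 point per gene, with the list medians of the Q175 pair (solid) and the WT pair (dotted). Immediate early genes have a median of 0.29 and chaperones of -0.21; ribosomal and oxidative phosphorylation genes have medians of 0.19 and 0.10 in Q175, with WT medians of -0.06 and -0.07.

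Nuclear oxidative phosphorylation and ribosomal protein genes had medians of opposite sign in the Q175 and WT pairs. Of 75 nuclear oxidative phosphorylation genes, 67 had a ratio above 0 in Q175 and 11 in WT, with medians of 0.10 in Q175 and -0.07 in WT. Of 78 cytosolic ribosomal protein genes, 73 were above 0 in Q175 and 21 in WT, with medians of 0.19 in Q175 and -0.06 in WT. No gene of either list was called by edgeR or DESeq2 or was 1.5-fold apart in Q175. At an unadjusted p under 0.05 edgeR had 1 and 9 higher and none lower. Both tests average the Q175 and WT pairs, so ratios of opposite sign cancel and a shift in Q175 alone cannot be judged from them. All 15 mitochondrially encoded genes were above 0 in Q175 and 11 in WT (medians 0.33 in Q175 and 0.11 in WT), and 1, mt-Nd6, was called higher by edgeR; it is encoded on the strand opposite to most of these genes, so its counts are uncertain without strand. Uqcrq, a complex III subunit, had 52.6 CPM in D2 Q175 and 44.2 in D1 Q175, against 46.1 in D2 WT and 49.4 in D1 WT, and Rps29, a ribosomal protein, 87.6 in D2 Q175 and 65.0 in D1 Q175, against 71.4 in D2 WT and 75.4 in D1 WT. Ribosomal genes have near-identical pseudogenes, which makes their counts uncertain. The mitochondrially encoded share of counts was higher in the D2 library in Q175 (11.06% against 8.98%) and in WT (6.49% against 6.06%). Its part in these lists was not tested. The 36 proteasome genes had medians of 0.02 in Q175 and -0.11 in WT, with none called by edgeR or DESeq2 and 1 higher and 2 lower at an unadjusted p under 0.05; with library totals the Q175 median was 0.00.

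The lists closest to Huntington's disease differed in their share of calls. Of 22 genes for huntingtin, its partners and polyglutamine proteins, 2 were called higher and none lower by edgeR or DESeq2 (2 and 2 at an unadjusted p under 0.05). The share of 9.09% called higher was near the 7.44% of all measured genes. They were Hap1, a huntingtin-associated transport protein, with ratios of 0.23 in Q175 and 0.34 in WT, and Prpf40b, a splicing factor that binds huntingtin, with 0.28 in Q175 and 0.38 in WT. Among 22 mTOR and translation regulators 4 were called lower (18.2%, 2 of them by DESeq2), including Ddit4l, an mTOR inhibitor of spiny neurons, with 5.78 CPM in D2 Q175 and 10.1 in D1 Q175, against 31.1 in D2 WT and 56.6 in D1 WT. Its Q175 levels were lower in both pathways, and the ratio was -0.80 in Q175 and -0.86 in WT. Of 41 autophagy and lysosome genes 3 were called lower (7.32%), a share near the 7.63% of all measured genes. Of 25 mismatch repair and DNA damage genes 2 were called higher and 3 lower, against 7.44% and 7.63% of all measured genes, and DESeq2 called none of them. Of 18 clock genes 3 were called in each direction (16.7%), or 2 in each by DESeq2. The clock shares, and the 18.2% of mTOR regulators called lower, were above the 7.44% higher and 7.63% lower of all measured genes. They rest on few genes.

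The largest differences between the Q175 and WT ratios concerned few genes: 21 were at least 1 log2 unit higher in Q175 and 15 lower. Among the 21, Igsf21, an immunoglobulin superfamily protein of synapses, had a ratio of 0.23 in Q175 and -0.96 in WT. Mast4, a kinase whose counts were not whole, had 2.72 CPM in D2 Q175 and 5.93 in D1 Q175, against 0.956 in D2 WT and 4.73 in D1 WT, a ratio of -1.11 in Q175 and -2.25 in WT. Its level was higher in D2 Q175 than in D2 WT. Among the 15, Chrd, a BMP antagonist, had 35.6 CPM in D2 Q175 and 14.1 in D1 Q175, against 47.1 in D2 WT and 6.30 in D1 WT. Its neighbour Thpo, whose annotation overlaps it, had 40.7 in D2 Q175 and 17.4 in D1 Q175, against 37.2 in D2 WT and 5.86 in D1 WT, and neither had whole counts. Sfmbt2, a Polycomb protein, had 14.2 CPM in D2 Q175 and 7.32 in D1 Q175, against 3.20 in D2 WT and 0.209 in D1 WT, a ratio of 0.95 in Q175 and 3.65 in WT. Mid1, a microtubule-associated ubiquitin ligase, was 99.0 CPM in D2 Q175 and 81.8 in D1 Q175, against 102 in D2 WT and 34.9 in D1 WT. In Chrd, Thpo, Sfmbt2 and Mid1 the D2 over D1 gap was narrower in Q175, and the D1 Q175 level was above the D1 WT level. Cdr1 had 18.8 CPM in D2 Q175 and 43.7 in D1 Q175, against 49.6 in D2 WT and 49.8 in D1 WT, a ratio of -1.22 in Q175 and -0.01 in WT; reads of Cdr1 and of RNA from the opposite strand cannot be told apart, since the sources used here state no strand.

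**Figure D5:**
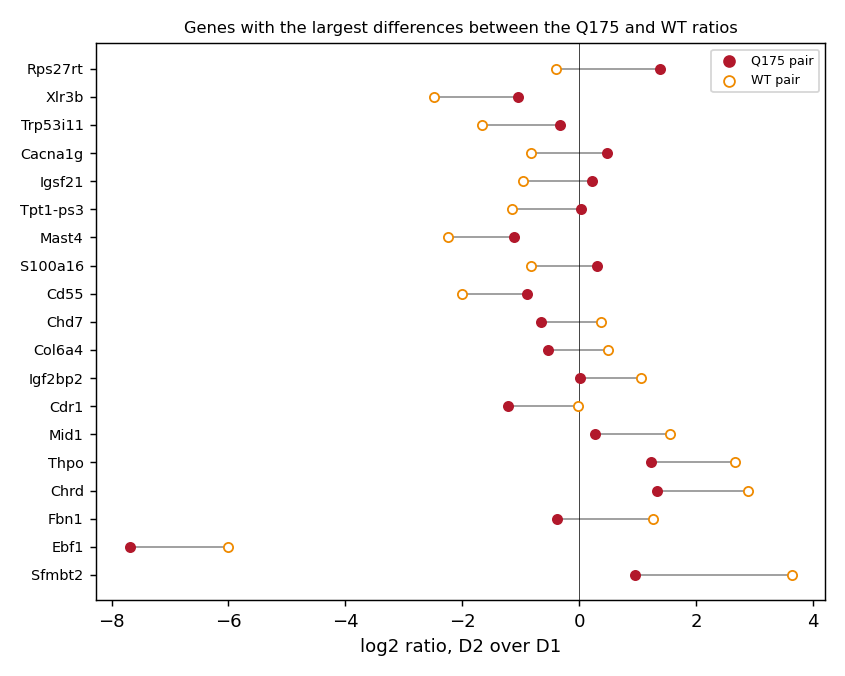
Log2 ratio of D2 over D1 in the Q175 pair (filled) and the WT pair (open) for 19 of the 20 named genes with the largest differences between the pairs. Sfmbt2 has 0.95 in Q175 and 3.65 in WT, and Rps27rt 1.39 in Q175 and -0.40 in WT.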

How the data were processed

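RNA from 4 EGFP-sorted pools of striatal neurons (D2 Q175, D1 Q175, D2 WT, D1 WT) was sequenced as 50 nt paired reads. The authors deposited expected counts (estimated counts) per gene without normalization; 15.3% of the values are not whole numbers (tolerance 1e-06), including those of 53 of the 206 named genes. The authors also deposited FPKM values, scaled to length and library size. CASAVA 1.8.2 is named per the submitters' processing notes; the sources used here name no aligner, counter or genome build.

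Counts were rounded and normalized with TMM over all 4 libraries (edgeR 4.0.16, R 4.3.3). The edgeR quasi-likelihood test, two-sided, had cell type and genotype as additive terms, 1 residual degree of freedom and 15668 genes after filterByExpr. A gene passing in this fit need not differ in Q175 alone. DESeq2 1.42.0 and limma 3.58.1 were alternatives. On simulated data of 15668 genes the D2 over D1 fit recovered 87% of 2-fold and 97% of 4-fold changed genes, and 5.64% of its calls were false. The simulation gave all genes the same coefficient of variation (6.8%) and no genotype effect. These shares therefore do not measure the error among the calls on the real data. Intervals are exact conditional binomial, and reads here carry no molecular identifiers, so they are not independent molecules. Symbols were matched by gene identifier, and 229 of the 11000 genes had none. Named genes were the 15 highest and 15 lowest Q175 ratios, the 10 largest differences from WT in each direction, all D1 and D2 markers, and up to 4 members of each of 55 lists with the largest ratios; others named here were chosen after their values were seen. Members and lists were chosen with earlier results of these data known. Promoters are from RefSeq (GRCm38.p6). Some items that these rules select are not reported here.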

Additional observations from a re-analysis of the deposited data

Results flagged for a closer look

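In 6 named genes the D2 over D1 log2 ratio had opposite signs in the Q175 and WT pairs, with a size of at least 0.25 in each. Named genes with a smaller ratio in either pair, such as Igsf21, were not counted. The difference was not tested. Cacna1g, a T-type calcium channel, had 0.48 in Q175 and -0.83 in WT. Chd7, a chromatin remodeller, had -0.65 in Q175 and 0.37 in WT. The collagen gene Col6a4 had -0.53 in Q175 and 0.49 in WT. Fbn1, the microfibril protein fibrillin, had -0.37 in Q175 and 1.26 in WT. Rps27rt, a retrotransposed copy of a ribosomal protein gene whose reads may be split with its parent, had 1.39 in Q175 and -0.40 in WT. S100a16, a calcium-binding protein, had 0.30 in Q175 and -0.83 in WT. None of the 6 passed the averaged test, which cannot judge such genes because ratios of opposite sign cancel in it.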

How the results depend on the processing

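The 84 genes 2-fold higher and 119 lower in D2 Q175 became 85 and 125 with library totals, 84 and 120 with DESeq2 size factors, 88 and 123 with normalization without mitochondrially encoded genes, 85 and 120 with a prior count of 0.5, and 81 and 117 on FPKM with a pseudocount of 0.1. The minimum on level moved them more: 206 and 227 at 1 CPM, and 36 and 49 at 20 CPM. They were 31 and 55 with 5 CPM in both libraries, and 965 and 858 with no minimum. Of the genes 2-fold apart, 52.9% were higher with no minimum, against 41.4% with the minimum of 5 CPM in either library. FPKM with a pseudocount of 1 gave 53 and 70. The averaged test called 1052 higher and 1051 lower of 15668 genes, with 4140 at an unadjusted p under 0.05. DESeq2 called 380 and 495, edgeR with no filter on low counts 286 and 377, edgeR without the genotype term 32 and 45, limma on FPKM 642 and 710, and edgeR with DESeq2 size factors 951 and 1021. Of the 206 named ratios, 7 moved with library totals and 33 on FPKM, and 1 changed sign, Igf2bp2, at 0.01 as reported and -0.01 with library totals. Of 47 list medians, 9 near 0 changed sign under some setting; axon guidance went to 0.00 at 20 CPM. No paired analysis was possible because each group has 1 library. Without replicates, no difference in Q175 alone can be set against the spread between animals.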

Other observations

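Genes at least 2-fold apart in Q175 often lay next to each other. In the RefSeq order of 10516 measured genes, 33 of the 190 genes placed that were 2-fold apart (17.4%) had a neighbour 2-fold apart the same way, while 337 of 10326 genes under 2-fold (3.26%) had a neighbour 2-fold apart in either direction. There were 18 such pairs, of which 4 overlap in the annotation, so their reads cannot be told apart without strand. Next to Drd2, Ankk1 and Ttc12 had Q175 ratios of 7.32 and 7.59 and WT ratios of 7.29 and 6.96; the Ankk1 interval was 6.47 to 11.38, since D1 Q175 held few counts. Beside Adora2a, Upb1 had 6.94 (interval 6.09 to 11.00) in Q175 and 6.40 in WT. Beside Gpr6, Fig4, a lipid phosphatase, had 2.27 in Q175 and 2.48 in WT. Sfxn1, a mitochondrial serine transporter next to Drd1, had 17.3 CPM in D2 Q175 and 1083 in D1 Q175, against 22.8 in D2 WT and 1853 in D1 WT. Next to Chrm4, Mdk, a growth factor, had -2.68 in Q175 and -2.55 in WT, and as this pair is 1 of the 4 that overlap, its value is uncertain. Il20ra and Slc35d3 had Q175 ratios of -4.89 and -5.15, and Nefl and Nefm of -1.41 and -1.15.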
